A study of Mus musculus with 2 samples.

Results

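A set of 1500 wide peaks from a PHLPP1 CUT&Tag library of IL-4-treated mouse macrophages is described here, together with the functions of the genes they mark. The peaks were taken from 240661 peak intervals listed for IL-4-treated cells, of which 14571 were on chromosomes 1 to 19 and at least 400 bp wide. They were chosen by measured values. A member is at least 400 bp wide, overlaps no interval of the untreated list by 1 bp or more, and has its summit within 1 kb of an annotated end of exactly 1 protein-coding gene. Absence from the untreated list, the width and the presence at a gene end are therefore properties of the selection and not findings. The members marked 1484 of 20661 protein-coding genes on these chromosomes, 7.18% of them, and 16 of these genes carried 2 members. The same rule with the lists exchanged gave 159 wide untreated-only peaks at single gene ends, which marked 159 genes, 0.77% of the total.

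The libraries came from bone marrow-derived macrophages, wild-type per the series' design text, as their own labels give no genotype, grown with M-CSF at 20 ng/ml, with 1 library of untreated cells and 1 of cells given IL-4 at 20 ng/ml for 4 h. CUT&Tag tethers a transposase to chromatin through an antibody, here one against PHLPP1, and sequences the DNA tagged beside it. No library made with a control antibody or from PHLPP1-deficient cells was analysed here. Each group had 1 library, so nothing here rests on replicates and no test was made, and in a bulk library fewer cells with signal and less signal per cell cannot be told apart.

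PHLPP1 is a protein phosphatase known for removing an activating phosphate from AKT. IL-4 acts on macrophages through JAK kinases and STAT6 and through the kinases PI3K and AKT, and drives the alternative activation programme. Promoters rich in CpG are typical of broadly expressed genes and often bind ETS, SP/KLF, NF-Y and NRF1 factors, while promoters poor in CpG are common among tissue-restricted genes.

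The promoters below show sequence that members at gene starts covered, for 5 strong members and for Mlf2, which is weaker and is shown because it holds a cAMP response element. They are the 250 bases before the annotated start, read 5′ to 3′ on the gene's strand, from RefSeq on GRCm38.p6. Capitals mark every match, on either strand, to the ETS motif CCGGAAG, the GC box GGGCGG, the CCAAT box CCAAT, the NRF1 motif CGCNTGCGC, the cAMP response element TGACGTCA and the E-box CACGTG, where N is any base. These 6 were taken from the 9 that the naming rule gave, so that each motif appears. Farsb (chr1:78488898-78489147, minus strand) encodes the β chain of the enzyme that loads phenylalanine onto its tRNA in the cytosol. Smc3 (chr19:53600146-53600395, plus strand) encodes a cohesin subunit. Arhgap11a (chr2:113848662-113848911, minus strand) encodes a GTPase-activating protein. Rps23 (chr13:90922872-90923121, plus strand) encodes a protein of the small ribosomal subunit. Vps26c (chr16:94526630-94526879, minus strand) encodes a subunit of an endosomal sorting complex. Mlf2 is at chr6:124931138-124931387 on the plus strand.
Farsb: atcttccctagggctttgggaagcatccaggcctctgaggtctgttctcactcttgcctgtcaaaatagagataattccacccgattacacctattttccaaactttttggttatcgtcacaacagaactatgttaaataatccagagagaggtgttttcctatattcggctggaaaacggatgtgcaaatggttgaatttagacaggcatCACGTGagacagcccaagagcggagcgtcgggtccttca
Smc3: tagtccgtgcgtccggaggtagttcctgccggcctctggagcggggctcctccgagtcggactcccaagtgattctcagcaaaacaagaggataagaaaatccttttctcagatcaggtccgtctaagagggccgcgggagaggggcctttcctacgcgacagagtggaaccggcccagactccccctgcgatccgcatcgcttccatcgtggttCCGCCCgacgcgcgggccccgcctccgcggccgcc
Arhgap11a: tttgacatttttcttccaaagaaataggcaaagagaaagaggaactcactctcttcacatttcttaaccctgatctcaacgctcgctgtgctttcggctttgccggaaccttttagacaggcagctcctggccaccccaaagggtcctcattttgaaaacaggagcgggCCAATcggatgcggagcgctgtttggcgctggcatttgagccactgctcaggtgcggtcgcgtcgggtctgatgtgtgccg
Rps23: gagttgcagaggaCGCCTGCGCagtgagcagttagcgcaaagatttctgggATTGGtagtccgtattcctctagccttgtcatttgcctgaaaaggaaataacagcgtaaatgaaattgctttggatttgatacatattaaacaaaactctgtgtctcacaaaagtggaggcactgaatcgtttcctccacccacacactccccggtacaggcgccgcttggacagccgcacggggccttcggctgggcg
Vps26c: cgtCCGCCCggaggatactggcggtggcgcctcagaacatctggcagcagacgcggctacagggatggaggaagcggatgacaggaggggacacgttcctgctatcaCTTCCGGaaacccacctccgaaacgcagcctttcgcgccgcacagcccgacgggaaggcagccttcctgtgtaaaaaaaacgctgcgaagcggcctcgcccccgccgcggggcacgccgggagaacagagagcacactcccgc
Mlf2: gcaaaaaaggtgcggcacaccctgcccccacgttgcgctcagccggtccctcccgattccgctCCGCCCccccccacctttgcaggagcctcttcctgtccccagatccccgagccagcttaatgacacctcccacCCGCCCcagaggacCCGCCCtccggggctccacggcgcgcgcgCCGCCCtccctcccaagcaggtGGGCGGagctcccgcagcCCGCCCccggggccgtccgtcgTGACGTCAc

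The peaks over these promoters had 23 fragments at the summit for Farsb, 18 for Smc3, 15 for Arhgap11a, 17 for Rps23, 15 for Vps26c and 10 for Mlf2. The summits lay at −109, −143, −231, −190, −226 and 50 bases from the start, negative values being upstream. The Farsb promoter held 8 CpG in 250 bases and was 45.2% G and C, and the Smc3 promoter held 26 CpG and was 64.4% G and C. The Mlf2 sequence held 7 of the matches, 6 of them GC boxes, and the Farsb, Smc3 and Arhgap11a sequences held 1 each. A match is a run of letters and was not tested as a binding site.

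Most members were weak in absolute terms. The deposited fold enrichment and p-value of each peak were solved for the number of fragments at its summit. This number ranged from 3 to 27 with a median of 6, and 193 members rested on 3 or 4 fragments, 220 on 10 or more and 43 on 15 or more. The fold enrichment over the local background had a median of 4.22. The deposited −log10 q, the caller's adjusted p-value of the peak, ranged from 0.393 to 19.5 with a median of 1.84. It reached q of at most 0.05 in 978 members (65.2%) and a −log10 q of at least 5 in 139 (9.27%). Narrower IL-4-only peaks at single gene ends, 8815 in number, had a median of 4 fragments, and 16.9% of them reached q of at most 0.05. The 384 wide IL-4 peaks at single gene ends that overlapped an untreated peak had a median of 9 fragments and 85.4%. Width chose the members and moves with the number of fragments, so the greater strength of the wide sets over the narrower one is part of the choice.

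The widths ran from 400 to 1410 bp, with a median of 526 and an interquartile range of 450.75 to 636.25. Ggnbp2 had the widest member, from 84869711 to 84871120 on chromosome 11, with 11 fragments. Ube2d3, a ubiquitin-conjugating enzyme gene, followed at 1393 bp and 11 fragments, and then Klf13, a zinc finger transcription factor gene, at 1371 bp and 19 fragments. Scaf8 had 1299 bp and 6 fragments and Pigm, a gene of glycosylphosphatidylinositol anchor synthesis, 1282 bp and 5 fragments. The widest members were thus not the strongest, and Ski, with the highest −log10 q, was 496 bp wide. Just inside the width threshold, at 400 bp, were Zswim3 with 11 fragments and a −log10 q of 4.63 and Anp32e with 10 fragments and 4.30. Just outside it, at 399 bp, were Nt5c with 7 fragments and 1.93 and 4921517D22Rik with 5 fragments and 1.26. More than 1 summit was listed in 164 members (10.9%).

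**Figure D1:**
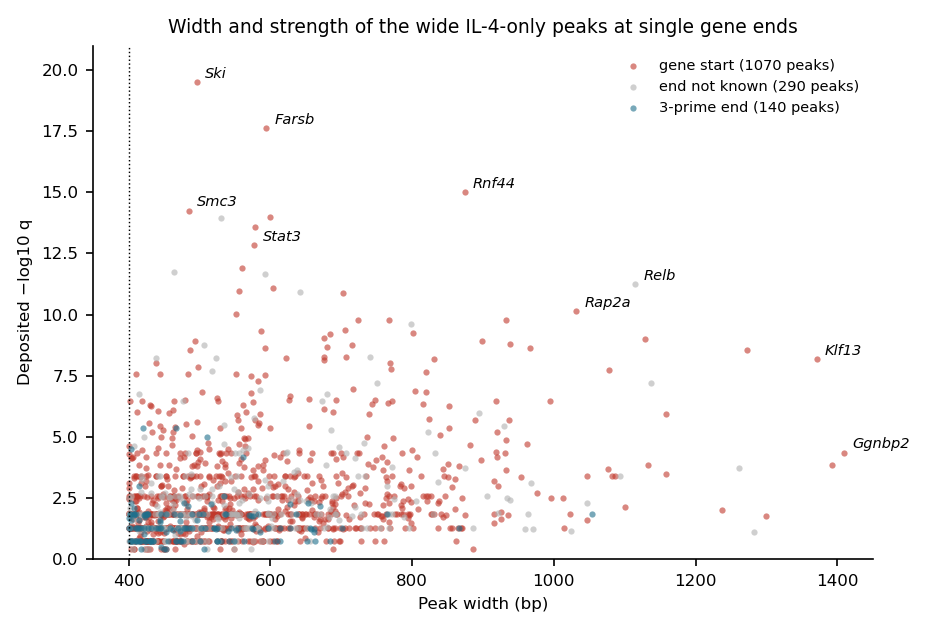
Width in bp (horizontal axis) against the deposited −log10 q (vertical axis) of each of the 1500 members, coloured by which end of the gene is marked, with the dotted line at the 400 bp minimum. Ski stands at 496 bp and 19.5, Ggnbp2 at 1410 bp and 4.35, and no member at a 3′ end is above 5.36.

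The members lay mainly at gene starts, which the rule did not ask for. The strand was known for the genes of 1210 members. Of these, 1070 were nearer the start (88.4%, Wilson 95% interval 86.5 to 90.1) and 140 were nearer the 3′ end. The 290 others could not be assigned. The intervals given with shares cover counting error only, since the peaks share 1 library. The share at the start was 64.3% (63.2 to 65.4) for the narrower IL-4-only peaks, 97.8% (95.6 to 98.9) for the wide peaks shared with the untreated list and 51.3% (42.3 to 60.2) for the wide untreated-only peaks. Wide untreated-only peaks were therefore spread over both ends about evenly, in 60 and 57 peaks, and wide IL-4-only peaks were not.

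Among members with a promoter in the reference table within 1 kb, 1032 in number, the summit lay within 200 bases of the start in 587 (56.9%). It was downstream of the start in 474 (45.9%). The median position was −29.5 bases and the interquartile range −199.25 to 137. The peak interval covered the annotated start in 710 of the 1070 members at starts (66.4%). Shared wide peaks had a median position of −125 bases, and 38.9% of the narrower IL-4-only summits were within 200 bases of the start.

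**Figure D2:**
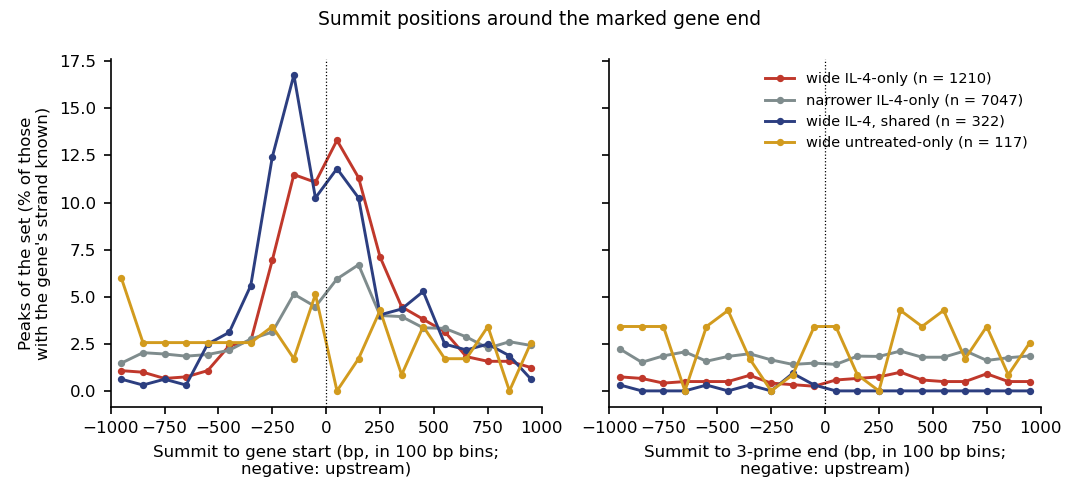
Distance of the summit in bp, in 100 bp bins, from the gene start (left) and from the 3′ end (right), as a percent of the peaks of each set whose gene has a known strand. Wide IL-4-only peaks (1210) gather around the start, as do shared wide peaks (322), and neither the 3′ ends nor the wide untreated-only peaks (117) show such a maximum.

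The share at the start was higher among stronger members. It was 125 of 167 (74.9%, 67.8 to 80.8) at a −log10 q under 1, 270 of 306 (88.2%, 84.1 to 91.4) between 1.3 and 2, 190 of 193 (98.4%, 95.5 to 99.5) between 3 and 5 and 39 of 39 (91.0 to 100) at 8 or more. Narrower peaks of the same strength had lower shares up to a −log10 q of 5: 60.7% under 1, 72.8% between 1.3 and 2 and 89.2% between 3 and 5. At 5 to 8 the 2 sets gave 97.3% and 97.8%, over 75 and 45 peaks. Across widths the share went from 68.1% at 200 to 300 bp to 82.9% at 400 to 500 bp and 98.0% at 800 bp or more.

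**Figure D3:**
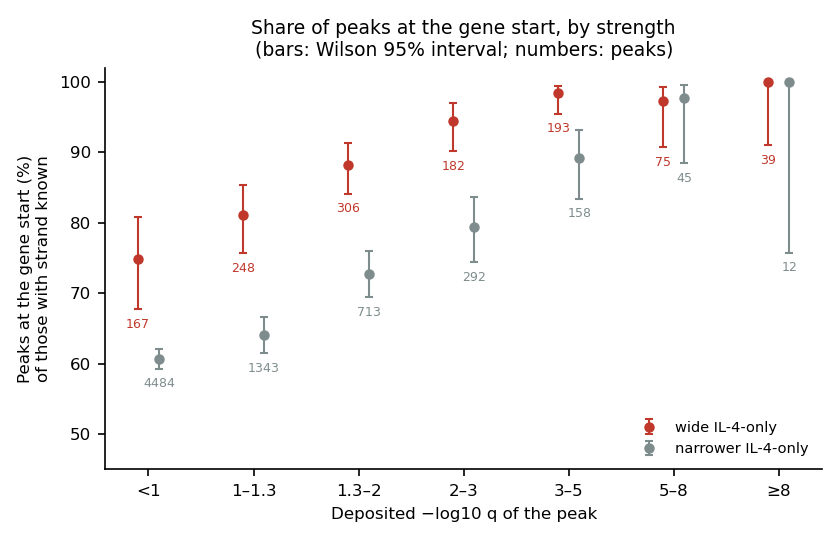
Percent of peaks at the gene start (vertical axis, not starting at 0) by deposited −log10 q (horizontal axis), for the wide and the narrower IL-4-only peaks, with Wilson 95% intervals and the number of peaks beside each point. The wide peaks go from 74.9% to 100% and lie above the narrower ones up to a −log10 q of 5.

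The promoters of members at starts were mostly rich in CpG. A promoter was called CpG-rich when its 300 bases had an observed over expected CpG ratio of at least 0.6 and at least 50% G and C. This held for 830 of 1032 member promoters (80.4%, 77.9 to 82.7), against 9335 of 20084 promoters in the table (46.5%), 61.5% for narrower IL-4-only peaks, 83.1% for shared wide peaks and 34.6% (23.2 to 48.2) for wide untreated-only peaks. The median CpG ratio was 0.819 for members and 0.586 over all promoters. Seen from the genes, 857 of 8209 genes with a CpG-rich promoter (10.4%, 9.80 to 11.1) had a member at the start, and 203 of 8247 genes with other promoters (2.46%) did. Genes with a member were also longer, with a median of 25388.5 bp against 17491 bp over all genes.

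Motifs of broadly used promoter factors were more frequent in member promoters than in all promoters, and motifs of STAT factors, PU.1 and AP-1 were not. The GC box stood in 790 of 1027 member promoters (76.9%, 74.2 to 79.4) against 47% of all. The NRF1 motif stood in 18% (15.8 to 20.5) against 8.75%, the cAMP response element in 4.67% (3.54 to 6.14) against 2.30% and the E-box in 12.1% (10.2 to 14.2) against 7.89%. The ETS motif had 15.9% (13.8 to 18.2) against 11.9%, the CCAAT box 43% against 38.1% and the YY1 motif AAGATGGC 4.67% against 3.06%. The STAT6 motif TTCNNNNGAA stood in 3.70% (2.71 to 5.04) of member promoters and 6.39% of all. The motif of other STAT factors, TTCNNNGAA, was at 4.97% against 7.78%, the PU.1 motif GAGGAAGT at 2.63% (1.81 to 3.80) against 3.18%, the AP-1 motif TGANTCA at 4.19% against 7.06% and the TATA box TATAAA at 5.94% against 12.7%. All were searched on both strands. Some motifs overlap in sequence, as the ETS and PU.1 motifs can. In the 305 promoters of shared wide peaks the GC box was at 84.3% (79.8 to 87.9) and the YY1 motif at 5.25%, above the members. The NRF1 motif was at 14.8%, the cAMP response element at 2.95%, the E-box at 11.1%, the ETS motif at 13.4% and the CCAAT box at 41.6%, below the members.

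Among CpG-rich promoters alone the gaps of the GC box and the NRF1 motif were smaller and that of the CCAAT box was larger. The ETS, PU.1 and TATA motifs changed side. The GC box was in 84.9% of 826 member promoters and 76.8% of all 9335, the NRF1 motif in 20.9% and 17.3%, and the CCAAT box in 43.2% and 36%. The ETS motif was in 17.8% and 20.2%. The STAT6 motif was in 3.15% and 4.26%, the PU.1 motif in 2.78% and 2.32%, and the TATA box in 5.57% and 4.55%. The base composition of the promoters moves with each of these shares, and its part in them was not tested.

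**Figure D4:**
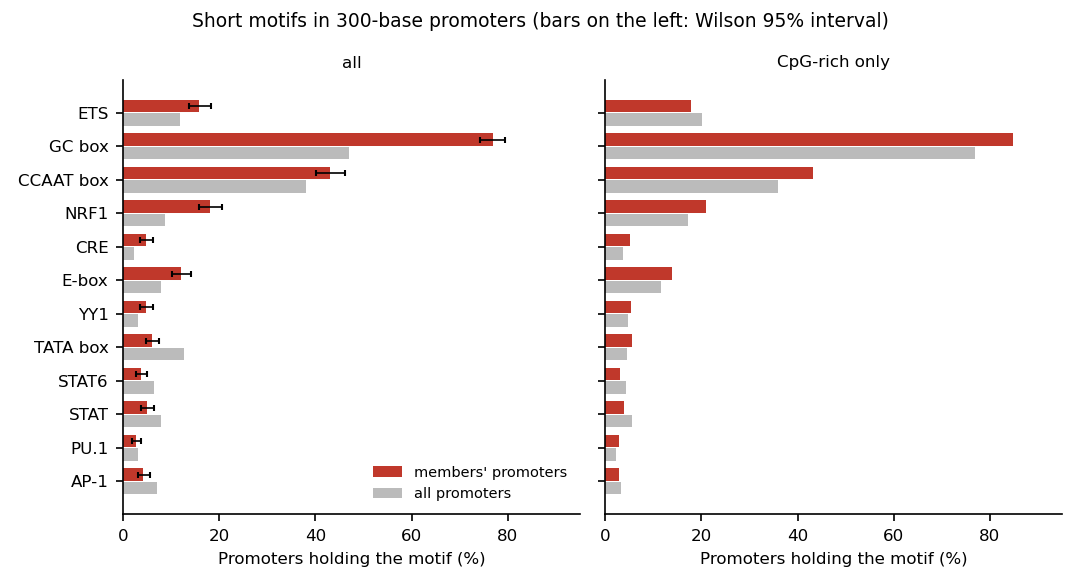
Percent of 300-base promoters holding each short motif (horizontal axis), for members at gene starts in red and all promoters of the table in grey, over all promoters (left, with Wilson 95% intervals for the members) and over CpG-rich promoters only (right). The GC box is at 76.9% against 47% on the left and 84.9% against 76.8% on the right.

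The 25 members with the highest −log10 q had 14 to 27 fragments, and all 19 of them with known strand were at the gene start. Ski, which encodes a repressor of SMAD proteins in TGF-β signalling, had 27 fragments (exact Poisson 95% interval 17.8 to 39.3) and a −log10 q of 19.5 at a fold of 11.5, from 155223070 to 155223565 on chromosome 4. The nearest untreated peak was 11221 bp away. The −log10 q was 17.6 at Farsb, whose 23 fragments have an interval of 14.6 to 34.5, and 15 at Rnf44, a gene of a RING finger ubiquitin ligase, also with 23. The summit at Ski lay −729 bases from the start, while those of Farsb and Rnf44 were at −109 and −26.

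Cohesin, Golgi, transcription and replication genes came next. Smc3 had 18 fragments and a −log10 q of 14.3, Dipk2a 19 and 14, and Carm1, an arginine methyltransferase gene that acts on histones, 22 and 13.9. Gorab, the gene of a Golgi protein, had 19 fragments. Stat3, a transcription factor gene of cytokine receptors, had 18 fragments on chromosome 11 from 100939163 to 100939739. Map3k3, a kinase gene of the MAP kinase cascade, had 17, and Gins2, of the replicative helicase, had 18. Pabpc1, the gene of the cytoplasmic poly(A)-binding protein, had 20, and Relb, an NF-κB subunit gene, had 21 over 1115 bp. None of the 25 genes had an untreated peak at the marked end, and 3 had a weak one at the other end, of 4 fragments at Gorab and 6 each at Map3k3 and Gins2.

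The remaining ones of the 25 had 14 to 21 fragments and were of mixed function. They were Prkra, an activator gene of the kinase PKR, Lims1, of focal adhesions, Klf16, Tmem87b, Rap2a, a small GTPase gene, Abhd11, Alkbh5, a demethylase gene of RNA methyladenosine, Arhgap11a, Txnrd3, a thioredoxin reductase gene, Gm45871, Ubtd2, Tuba1c, an α-tubulin gene, and Rps23. The nearest untreated peak was between 1732 and 28547 bp away over the 25, with a median of 15651 bp.

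Gene functions were counted over 57 lists of symbols, with a median of 82 genes per list, that hold 9590 of the 20661 genes. The marked share was 7.27% of listed and 7.11% of unlisted genes, so the lists as a whole were not marked more than other genes. A total of 697 marked genes (47%) was in a list and 787 were in none. The Wilson interval lay wholly above the 7.18% of all genes for 21 lists, below it for 5 and included it for 31. Lists share genes, and with 57 of them some would lie apart by counting error alone. The 21 include the 5 lists added after values were seen. These are KLF and SP, bZIP, SMAD and SKI, E2F and DP, and actin and tubulin, so their place above is no separate result. Among genes with a CpG-rich promoter, where 10.4% were marked at the start, the interval lay above for 8 lists and below for 3. The 8 were chromatin regulators, kinases, the PHLPP and AKT pathway, the interferon response, and the added lists of KLF and SP, bZIP and SMAD and SKI factors, and of actin and tubulin. The 3 were developmental transcription factors, rRNA and tRNA processing, and the mitochondrial ribosome.

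**Figure D5:**
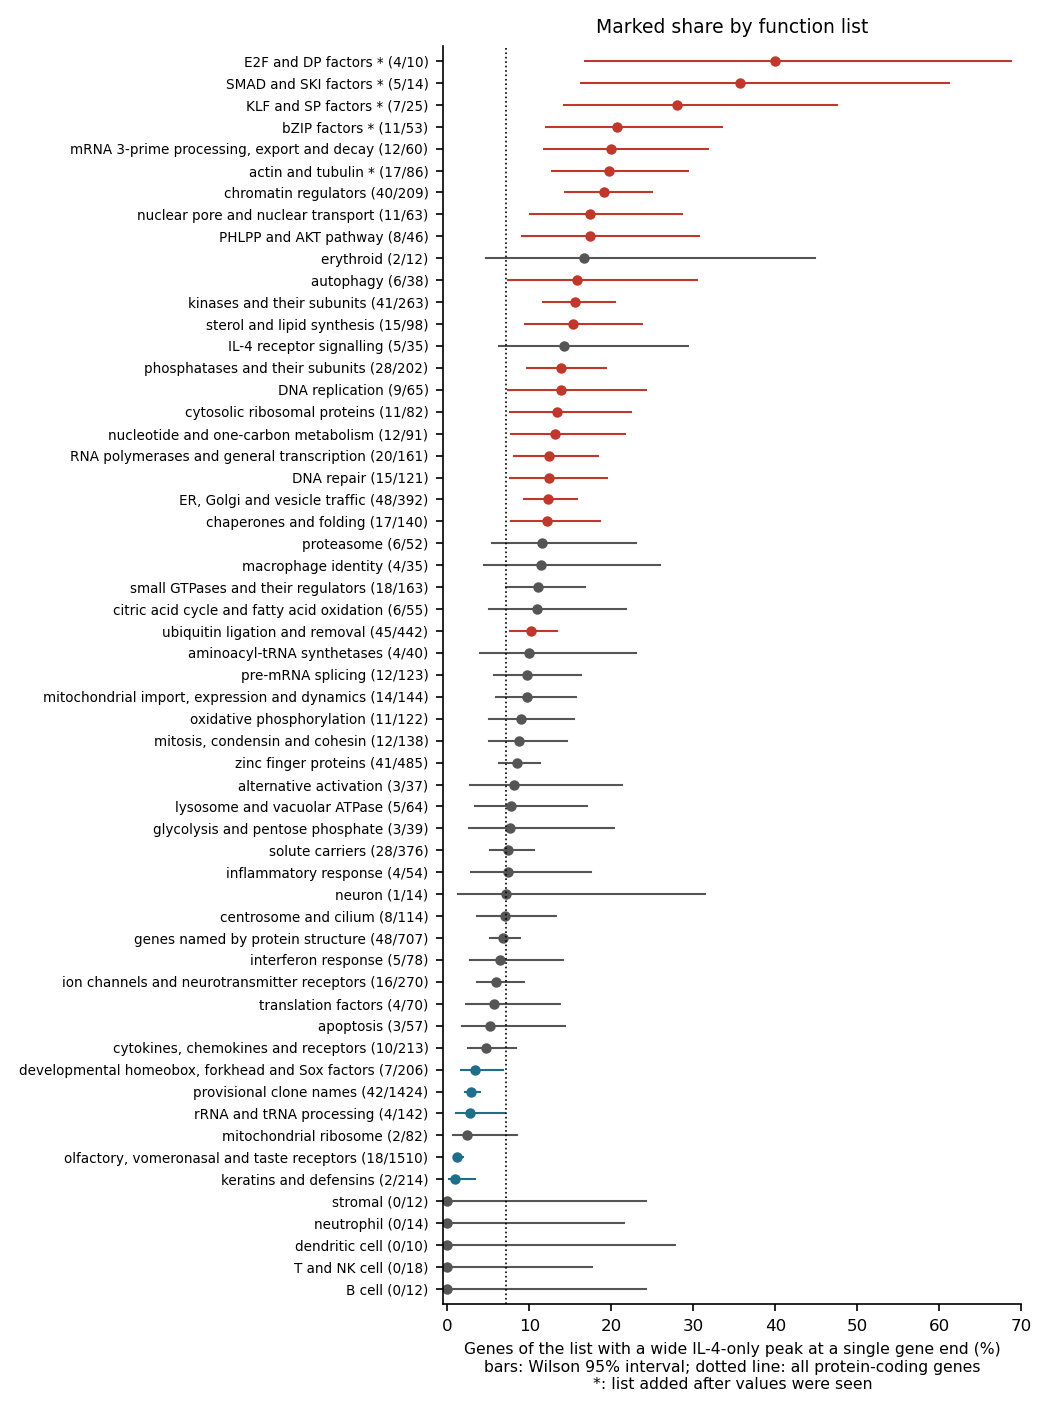
Percent of the genes of each list that carry a wide IL-4-only peak at a single gene end (horizontal axis), with Wilson 95% intervals and the number marked of the number of genes beside each name, against the 7.18% of all protein-coding genes (dotted line). Chromatin, mRNA decay, kinase and nuclear transport lists lie to the right. So do the KLF and SP, bZIP, SMAD and SKI, and E2F and DP families, which were added after values were seen. Zinc finger proteins lie near the line, and developmental factors, receptors of smell, and keratins and defensins lie to the left.

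Of 209 chromatin regulators 40 were marked (19.1%, 14.4 to 25), and 28 of the 151 with a CpG-rich promoter (18.5%, 13.2 to 25.5). Kdm3a, a histone H3 lysine demethylase gene, and Ing2, a reader of histone methylation, had 13 fragments each. Setd5 had 14 fragments over 1158 bp, and Hdac2, a histone deacetylase gene, had 11. Further down, and chosen after their values were seen, Eed with 8 fragments, Suz12 with 7 and Ezh2 with 3 encode the core of Polycomb repressive complex 2. The 3 fragments at Ezh2 are the lowest number that any member had. The Kdm3a start also had an untreated peak of 4 fragments that did not overlap, 638 bp away. Of 161 genes of RNA polymerases and general transcription 20 were marked (12.4%, 8.19 to 18.4), and 15 of the 115 with a CpG-rich promoter (13%, 8.07 to 20.4), an interval that includes 10.4%. They were led by Cdk9, the kinase that releases paused polymerase, with 16 fragments, its partner cyclin gene Ccnt2 with 8, Ints6 with 10 and the polymerase III factor gene Brf1 with 10.

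The KLF and SP, bZIP, SMAD and SKI, and E2F and DP families were examined after values were seen, so their shares are descriptions of what prompted them. Of 25 KLF and SP factors 7 were marked (28%, 14.3 to 47.6): Klf16 and Klf13 with 19 fragments each, Klf4 with 11, Klf7 with 9, Klf2 with 8, and Klf6 and Sp3 with 7 each. Of 53 bZIP factors 11 were marked (20.8%), with Crebrf at 14 fragments, Atf7 at 12, Atf2 at 11 and Creb3l2 at 9. Of 14 genes in the SMAD and SKI list 5 were marked, led by Ski with 27. The others were Smad2 with 8, Smad3 with 7, Smad6, an inhibitory SMAD gene, with 6, and Smurf2 with 5. Smurf2 is in the list but is not itself a SMAD or SKI gene. With a gene-end window of 500 bp this list had 2 of 14. Of 10 E2F and DP genes, which control entry into the cell cycle, 4 were marked: E2f5 and E2f3 with 13 each, Tfdp2 with 7 and E2f8 with 6. Zinc finger protein genes were marked in 41 of 485 (8.45%, 6.29 to 11.3), led by Zfp367 with 14 and Zbtb7b with 13. With a CpG-rich promoter 26 of 219 were marked (11.9%, 8.23 to 16.8), an interval that includes the 10.4% of all such genes. Developmental homeobox, forkhead and Sox genes were marked in 7 of 206 (3.40%, 1.66 to 6.85), and in 2 of the 91 with a CpG-rich promoter (2.2%, 0.605 to 7.66). Foxd2 had the strongest of these, with 8 fragments. Untreated peaks that did not overlap the member stood at the same end of E2f3, with 4 fragments, and of Smad2, with 5. Atf2, Tfdp2 and Smad6 had one at the other end, of 4, 4 and 5 fragments.

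Of 60 genes of mRNA 3′ processing, export and decay 12 were marked (20.0%, 11.8 to 31.8), with Cnot3, a subunit of the CCR4-NOT deadenylase, at 15 fragments. The nonsense-mediated decay genes Upf3a and Smg1 had 13 and 10. Among the CpG-rich genes of the list 8 of 47 were marked (17%, 8.89 to 30.1), an interval that includes the 10.4% of all such genes. Of 63 nuclear pore and transport genes 11 were marked (17.5%, 10.04 to 28.6), led by Cse1l, an export receptor gene for importin α, with 12, and Kpna3, Nup153 and the GTPase gene Ran with 8 each. Among those with a CpG-rich promoter 5 of 46 were marked (10.9%, 4.73 to 23), near the 10.4% of all such genes. Of 123 splicing genes 12 were marked (9.76%), with Srsf2 and Hnrnpa3 at 9 and Cdc5l and Ddx39a at 8. Of 142 genes of rRNA and tRNA processing 4 were marked (2.82%, 1.10 to 7.02): Pus7 with 8, Rrp1 with 6, Wdr75 with 5 and Utp20 with 4. This list held 95 genes with a CpG-rich promoter, of which 3 were marked (3.16%, 1.08 to 8.88), and 10 and 13 of its genes had wide IL-4 peaks that were shared with untreated cells or stood at ends of more than 1 gene. In the mRNA list these were 3 and 1 of 60, over all genes they were 602 and 519 of 20661, and the difference between the lists was not tested.

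Translation was marked unevenly. Of 82 cytosolic ribosomal protein genes 11 were marked (13.4%, 7.66 to 22.4), led by Rps23 with 17 fragments, Rps19 with 11 and Rpl3 with 9. Of the 49 with a CpG-rich promoter 7 were marked (14.3%, 7.1 to 26.7), an interval that includes the 10.4% of all such genes. Of 82 mitochondrial ribosome genes 2 were marked (2.44%, 0.671 to 8.46), Mrps9 with members of 11 and 4 fragments and Mrpl23 with 5. The rule leaves out wide IL-4 peaks that are shared with untreated cells or stand at ends of more than 1 gene. Such peaks stood at 4 and 6 other genes of this list, and at 602 and 519 of all 20661. Of 40 aminoacyl-tRNA synthetase genes 4 were marked, Farsb with 23, Cars with 7, Pars2 with 5 and Vars2 with 5, the last at its 3′ end. Of 70 translation factor genes 4 were marked (5.71%), Pabpc1 with 20, Eef1a1 with 8, Eif1 with 7 and Etf1 with 6. Mitochondrial energy genes were near the share of all genes, at 11 of 122 for oxidative phosphorylation (9.02%, 5.11 to 15.4), where Cox7a2l had 16 fragments and Atp5g1 8, and at 6 of 55 for the citric acid cycle and fatty acid oxidation, where Acadm had 14, Etfa 9 and the citrate synthase gene Cs 8. Mitochondrial import, expression and dynamics genes were at 14 of 144 (9.72%, 5.88 to 15.7), led by Coq10b with 13 and the import receptor gene Tomm70a with 11.

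Kinases and phosphatases were marked at about 2 times the 7.18% of all genes, and less far above the 10.4% among genes with a CpG-rich promoter. Of 263 genes of kinases and their subunits 41 were marked (15.6%, 11.7 to 20.5), and 27 of the 176 with a CpG-rich promoter (15.3%, 10.8 to 21.4). Map3k3 had 17 fragments, Cdk9 16, Stk32c 14 and Gsk3a 12. Of 202 phosphatase genes 28 were marked (13.9%, 9.77 to 19.3), and 17 of the 118 with a CpG-rich promoter (14.4%, 9.19 to 21.9). This last interval includes the 10.4% of all such genes, while that of the kinases lies above it. Inpp5f, a phosphoinositide phosphatase gene, Pdp1, which activates pyruvate dehydrogenase, and Ptp4a1 had 11 fragments each, and Dusp7, a MAP kinase phosphatase gene, had 9. Of 163 small GTPase genes and their regulators 18 were marked (11%, 7.1 to 16.8), with Rap2a at 21, Arhgap11a at 15, Rap1b at 10 and Arhgap12 at 8.

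The pathway of PHLPP1 itself had 8 marked genes of 46 (17.4%, 9.09 to 30.7), and 7 of the 33 with a CpG-rich promoter (21.2%, 10.7 to 37.8). Gsk3a, a kinase gene that AKT inhibits, had 12 fragments (6.2 to 21) at a −log10 q of 6.34, with its summit at −143. Tsc1, a restrainer gene of mTOR, and Rheb, the GTPase gene that activates it, had 8 each. The PI3K catalytic subunit genes Pik3cd and Pik3ca had 7 and 5 fragments. Pik3r4, which is also in the autophagy list, had 3, at a −log10 q of 0.393. Phlpp2, the paralogue of Phlpp1, had 4 fragments (1.09 to 10.2) and a −log10 q of 0.753. Of the other genes of this list, 25 had only narrower IL-4 peaks at an end, 5 had a wide shared peak and 8 had no IL-4 peak at an end. Over all 20661 genes these were 8025, 602 and 10031. A narrower IL-4-only peak at a single gene end stood at 28 of the 46 (60.9%), against 34.2% of all genes, and this was not tested.

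IL-4 receptor signalling had 5 marked genes of 35 (14.3%, 6.26 to 29.4), an interval that includes the share of all genes. They were Stat3 with 18 fragments, Pik3cd with 7, the kinase gene Jak2 with 6, Pik3ca with 5 and the adaptor gene Grb2 with 5. Of these, Stat3 alone passed a −log10 q of 5. All 5 were at the gene start. Pik3cd also had an untreated peak of 4 fragments at its other end.

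Genes of the alternative activation programme were marked at about the share of all genes, in 3 of 37 (8.11%, 2.80 to 21.3). Klf4, a transcription factor gene of this programme, had 11 fragments. Clec10a, a lectin receptor gene, and Pparg, a nuclear receptor gene, had 5 each at a −log10 q of 1.26. Of the other genes of the list 18 had narrower IL-4 peaks at an end and 15 had none, against 8025 and 10031 of all 20661 genes. A narrower IL-4-only peak at a single gene end stood at 20 of the 37 (54.1%), against 34.2% of all genes, and this was not tested. Macrophage identity genes were marked in 4 of 35 (11.4%, 4.54 to 26). Of these, Tyrobp, an adaptor gene of myeloid receptors, had 7 fragments, the transcription factor gene Cebpb 6 and the co-receptor gene Cd14 5. Inflammatory genes were marked in 4 of 54 (7.41%), the NF-κB genes Relb with 21 and Rel with 7, the chemokine gene Cxcl10 with 5 at its 3′ end and Irak3 with 5. Cxcl10 also had an untreated peak of 6 fragments at the same end, 682 bp away, and Irak3 one of 7 fragments at its other end. Interferon response genes were marked in 5 of 78 (6.41%), and in 4 of the 13 with a CpG-rich promoter (30.8%, 12.7 to 57.6). The 5 were the receptor genes Ifngr2, Ifngr1 and Ifnar1 with 12, 7 and 6 fragments, and Irf1 and Ifitm2 with 5 each, Ifitm2 at its 3′ end. There were 10 marked genes among 213 of cytokines, chemokines and their receptors (4.69%, 2.57 to 8.43). The strongest of these was Il3ra, a receptor chain gene, with 13 fragments, and Tnfrsf8 had 7 at its 3′ end. Ifngr2 had an untreated peak of 4 fragments 85 bp from the member.

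Vesicle traffic and lipid synthesis were marked above the share of all genes. Of 392 genes of the endoplasmic reticulum, Golgi and vesicle traffic 48 were marked (12.2%, 9.36 to 15.9), with Vps26c at 15 fragments, the SNARE recycling gene Napa at 14, Arf4 at 11 and Stx16 at 10. All 40 peaks of this list with known strand were at the start. Of 98 sterol and lipid synthesis genes 15 were marked (15.3%, 9.50 to 23.7). Lpcat3, which remodels phospholipids, had 14 fragments, the sterol synthesis genes Cyp51 and Idi1 had 12 and 11, and Agpat2, of triglyceride synthesis, had 10. Other marked genes of sterol synthesis, chosen after their values were seen, were Srebf2, the regulator of the pathway, with 9 fragments, and Sqle with 6. Of 91 genes of nucleotide and one-carbon metabolism 12 were marked (13.2%), with Nme6 at 11 and Mat2a, the S-adenosylmethionine synthetase gene, at 10. Among genes with a CpG-rich promoter, 35 of 255 traffic genes (13.7%) and 9 of 50 sterol and lipid genes (18%, 9.77 to 30.8) were marked, with intervals that include 10.4%. Solute carriers were at 28 of 376 (7.45%, 5.20 to 10.6), glycolysis and pentose phosphate genes at 3 of 39 (Rpia with 10 fragments, Gapdh with 8, Hk2 with 3), and lysosome genes at 5 of 64, led by Lgmn with 7 fragments, Psap with 8 and Ctsz with 9. Autophagy genes were at 6 of 38 (15.8%, 7.44 to 30.4), led by Atg101 and Atg2a with 10 each. With a CpG-rich promoter, 3 of 23 autophagy genes (13%, 4.54 to 32.1) and 9 of 60 nucleotide and one-carbon genes (15%, 8.1 to 26.1) were marked. These intervals also include 10.4%.

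Among protein quality control lists, the intervals of chaperone and ubiquitin genes lay above the 7.18% of all genes, and that of the proteasome included it. Of 140 chaperone genes 17 were marked (12.1%, 7.72 to 18.6), with Hspa8, the constitutive Hsp70, at 14 fragments, the calreticulin gene Calr at 12, Hspbp1 at 11 and Hsph1 at 10. Of 442 genes of ubiquitin ligation and removal 45 were marked (10.2%, 7.70 to 13.4), with Rnf44 at 23, Marchf3 at 13, and Rnf149 and Trim45 at 11. Proteasome genes were marked in 6 of 52 (11.5%, 5.4 to 23), Psmd12 with 13 and Psma1, Psmd9 and Psmd3 with 6. Among genes with a CpG-rich promoter, 13 of 94 chaperone genes (13.8%, 8.26 to 22.2) and 34 of 241 ubiquitin genes (14.1%, 10.27 to 19.1) were marked. For the proteasome this was 3 of 32 (9.38%, 3.24 to 24.2). These intervals include the 10.4% of all such genes.

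Among genome maintenance and cytoskeleton lists, the intervals of DNA replication, DNA repair, and actin and tubulin lay above the 7.18% of all genes. Those of the mitosis list and of the centrosome and cilium list included it. DNA replication genes were marked in 9 of 65 (13.8%, 7.46 to 24.3), with the GINS subunit genes Gins2 at 18 and Gins4 at 12, Cdt1, which loads the helicase, at 9 and Rrm2b at 8. DNA repair genes were marked in 15 of 121 (12.4%, 7.66 to 19.4), with Msh5 at 16, Rev3l at 13, Sfr1 at 10 and Neil3 at 9. Among genes with a CpG-rich promoter, 5 of 44 replication genes (11.4%, 4.95 to 24) and 10 of 79 repair genes (12.7%, 7.02 to 21.8) were marked. Both intervals include the 10.4% of all such genes. Mitosis, condensin and cohesin genes were marked in 12 of 138 (8.70%, 5.04 to 14.6), Smc3 with 18 and Cenpn with 8, and centrosome and cilium genes in 8 of 114 (7.02%), B9d2 with 18 and Ift57 with 13. Wide IL-4 peaks that were shared or stood at ends of more than 1 gene were at 8 and 20 other genes of the mitosis list. Over all 20661 genes these were 602 and 519. Actin and tubulin genes, a list added after values were seen, were marked in 17 of 86 (19.8%, 12.7 to 29.4), Tuba1c with 16, the capping protein gene Capzb with 9, and Brk1 and Wasl, of actin nucleation, with 8 each.

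Receptors of smell, pheromones and taste were marked in 18 of 1510 (1.19%, 0.755 to 1.88), with at most 6 fragments, as at Olfr294, Olfr61, Olfr667 and Olfr957. Only 1 gene of this list had a CpG-rich promoter in the table, and 1214 of 1510 had no IL-4 peak at an end, against 10031 of all 20661 genes. Keratins and defensins were marked in 2 of 214 (0.935%), Defb3 with 6 and Krt24 with 5, and genes with provisional names in 42 of 1424 (2.95%, 2.19 to 3.96). Markers of neutrophils, T and NK cells, B cells, dendritic cells and stromal cells were marked in 0 of 14, 0 of 18, 0 of 12, 0 of 10 and 0 of 12 genes, for which the Wilson interval reaches 17.6% to 27.8%. Erythroid genes were marked in 2 of 12, Hbb-bs, a β-globin gene, and Slc4a1, both with 5 fragments. Slc4a1 also had an untreated peak of 5 fragments at its other end. Neuronal genes were marked in 1 of 14, Slc17a6, a glutamate transporter gene, with 10 fragments, 791 bases past its 3′ end. Ion channel and neurotransmitter receptor genes were marked in 16 of 270 (5.93%, 3.68 to 9.41), led by P2rx4, an ATP-gated channel gene, with 11 fragments. Apoptosis genes were marked in 3 of 57 (5.26%), Casp9, a caspase gene, with 11, Birc2 with 7 and Pdcd6 with 6. Genes named only by protein structure were marked in 48 of 707 (6.79%, 5.16 to 8.89). Peak lists do not measure RNA, so the labelled cell type could not be checked against expression.

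Though no member overlaps an untreated peak, 280 of 1500 (18.7%, 16.8 to 20.7) had an untreated peak at an end of the same gene. At the marked end there was one, without overlap, for 100 members (6.67%), with a median of 5 and at most 10 fragments. At the other end there was one for 191 (12.7%), with a median of 5 and at most 14. The nearest untreated peak was a median of 8568 bp away, with an interquartile range of 3713.75 to 16964.2, and within 1 kb for 136 members (9.07%). Listed IL-4 peaks went down to 3 fragments and listed untreated peaks to 4, and the lowest local background was 1.46 times as high in the untreated library. A weak site could thus enter the IL-4 list and miss the untreated one, and the part of this in the absence of untreated peaks was not tested.

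The wide untreated-only peaks at single gene ends had a median of 6 fragments, as the members had, over a median local background of 1.02 against 0.715. Their highest −log10 q was 3.78, at Sult4a1 with 12 fragments, followed by Tnfrsf9, a TNF receptor family gene, with 11 and Syt9, a synaptotagmin gene, with 10, the latter both at 3′ ends. None of the 159 reached 5, against 139 of the 1500 members. Wide IL-4-only peaks at single gene ends were 11.8% of 12704 wide IL-4-only peaks, and the untreated counterparts were 2.60% of 6109.

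The 140 members at 3′ ends were weaker and narrower than those at starts, with medians of 5 against 6 fragments and 468 against 533 bp. Their summits were on both sides of the 3′ end, 78 of 140 outside the gene, and 2 passed a −log10 q of 5, CK137956 with 12 fragments and Slc17a6 with 10. Next by −log10 q came Ltb, the lymphotoxin β gene, with 11 fragments, and Sertad1 with 13, named after their values were seen. At Ltb the miRNA gene Mir6973a ends 935 bp from the summit. An end of a non-coding gene lay within 1 kb of 4 of the 140 members at 3′ ends (2.86%) and of 186 of the 1070 at starts (17.4%).

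In 10 of the 16 genes with 2 members both peaks were at the same end, and in 6 they were at opposite ends. These genes were named after their values were seen. Abhd11 had peaks of 18 and 9 fragments at its start, and Fem1b peaks of 8 and 6. Map3k4, a kinase gene, had 6 fragments at its start and 6 at its 3′ end, and Sertad1 had 12 at its start and 13 at its 3′ end. Mavs, an adaptor gene of antiviral signalling, had 5 and 4.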

How the data were processed

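PHLPP1 CUT&Tag was analysed in 2 libraries, 1 per group, from the peak list that the authors deposited for each. Build mm10, DiffBind, MACS2 2.2.7.1 and Bowtie 0.12.8 are listed, without roles, per the submitters' processing notes. The sources used here do not give the control, fragment size or duplicate handling. The deposited score equals 10 times the −log10 p with decimals dropped. The deposited fold is a linear ratio over the authors' local background, and the deposited −log10 p (lowest 2.00) and −log10 q are the caller's own values per peak.

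From these the fragments at each summit and the background were solved, with 1 added to both in the fold and p read as a Poisson upper tail. Every entry was met within 0.01. The solver and the overlap and gene-end steps were tested on simulated data. Intervals with several summits kept the strongest. Gene ends and promoters (250 bases before to 50 after the start) came from RefSeq tables of GRCm38.p6, the same build as mm10. A promoter in the table gave the strand for 16456 of 20661 genes (79.6%). Python 3.11.15, pandas 2.3.3, numpy 2.4.6 and scipy 1.17.1 were used.

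The members, the gene lists and the motifs were chosen with earlier results of these data known. List patterns were corrected and 5 of 57 lists were added after values were seen, as was the count over CpG-rich promoters. Named genes are the 25 strongest members, up to 4 per list, the 5 widest, those beside the width threshold and all of the alternative activation, IL-4 receptor, PHLPP and AKT, macrophage and other-cell lists; genes named beyond these were chosen after their values were seen. Some genes that the rule gave are not reported here. Each group had 1 library, so no test was made. PCR fragments are not independent molecules, and all intervals (Wilson for shares, exact Poisson for fragments) cover counting error only.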

Additional observations from a re-analysis of the deposited data

How the results depend on the processing

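The number of members was 2776 with a width minimum of 300 bp, 863 with 500 bp, 978 among IL-4 peaks with q of at most 0.05 and 139 under the stricter −log10 q minimum of 5, in place of 1500. The share at the gene start, 88.4%, became 81.8% with 300 bp, 92.5% with 500 bp, 92.5% with a gene-end window of 500 bp, 82.4% with 2 kb, 93.6% at q of at most 0.05 and 98.2% under the minimum of 5. The share with an untreated peak at an end of the same gene, 18.7%, became 20.7% with the 2 kb window and 13.1% where no untreated interval within 1 kb was allowed. It became 30.3% where only untreated peaks with q of at most 0.05 could exclude an IL-4 peak by overlap, and 13.7% under the minimum of 5. The cause of these shifts was not tested beyond the change of members itself. Ends of several genes, every summit meeting the rule and chromosome X left the 3 values within their interval or within 1.5 times. Of the 57 lists, 34 stayed on the same side of the share of all genes under every setting that gave a value, 13 for each list but that of neutrophils with 12, 23 of them above and 11 below, and 23 changed side under at least 1. Among the latter were alternative activation, inflammatory response and, under that minimum, macrophage identity and autophagy. The 23 lists that stayed above include the 5 added after values were seen. The counts over CpG-rich promoters and over genes with an isolated end were chosen after seeing the data. The median promoter CpG ratio was 0.794 over the 250 upstream bases. No paired analysis was possible because each group had 1 library. With a median of 6 fragments per member, sites of 3 to 5 fragments limit what an absence from the untreated list shows.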

Other observations

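Chromosome X, outside the rule, held 2937 intervals of the IL-4 list and 1001 of the untreated list. By the same rule it had 9 wide IL-4-only peaks at single gene ends, marking 9 of 966 genes (0.932%), while each of the 19 autosomes had members at 5.88% of its genes or more. The cause was not tested.

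Narrower and wide peaks of the IL-4 list divide the protein-coding genes into 1484 with a member, 602 with a wide shared peak at an end, 519 with a wide peak at ends of more than 1 gene, 8025 with narrower peaks alone and 10031 with no IL-4 peak at an end.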
